A study of Homo sapiens with 9 samples.

Results

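The proteasome is the protease that degrades most of the ubiquitin-marked protein of the cell, and its genes carry the symbols PSMA to PSMG. The genes described here were the protein-coding rows of the deposited tables whose symbol begins with PSM, a letter from A to G and a number, which gave 49 of 58735 genes. Of these, 48 encode subunits, assembly chaperones or regulators of the proteasome. The other, PSMC3IP, shares the name pattern only and encodes a partner of the meiotic recombinases. A mean of at least 1 FPKM (fragments per kilobase of gene length, scaled to the size of the library) was reached by 45 of the 49, and tests covered these.

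RNA was sequenced from PaTu 8988t, an established human line from a pancreatic adenocarcinoma. The cells met an extracellular matrix that was a control matrix, a matrix containing overexpressed wild-type CPXM2 (a secreted member of the carboxypeptidase family) or a matrix containing the overexpressed CPXM2 mutant R213A, with 3 libraries each. The labels name the matrix and not the cells that laid it down, the time of contact or whether each library had its own culture. The p-values below therefore reflect how far libraries of 1 group lie apart, a spread that may be technical. The study asked how CPXM2 in the matrix affects tumour cells.

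In the core particle of the proteasome, rings of alpha subunits control entry and rings of beta subunits enclose the active sites. The regulatory particle caps the core: its base of ATPases unfolds the substrate, and its lid removes ubiquitin. Interferon-inducible catalytic subunits can replace the constitutive ones and form the immunoproteasome, which shapes the peptides shown on MHC class I. Dedicated chaperones assemble both particles, and proteasome genes are often raised together by the transcription factor encoded by NFE2L1 when degradation falls short.

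The values were deposited as 2 tables, which may have been scaled separately. One, called the 4-library table here, held the first library of each group with R213A 3. The other, the 5-library table, held controls 2 and 3, wild types 2 and 3 and R213A 2. Recovered depth was between 15951927 and 18312806 reads per library, and intervals or limits from counts cover counting error only. R213A 1 stood apart, with the highest FPKM sum (390413, against 239351 in the lowest library) for the fewest reads. Control 2 stood apart from the other libraries of its table, with 20059 genes detected. In bulk RNA, fewer cells of a kind and less RNA per cell cannot be told apart. Of 6 epithelial markers, KRT8, KRT18 and EPCAM had a mean of at least 1 FPKM and KRT7, KRT19 and CDH1 did not. None of 12 immune, 10 fibroblast and 6 endothelial markers did, and the summed level of the immune markers was at most 1.03 FPKM in any library. Mitochondrial reads made up between 1.81% (R213A 1) and 2.38% (control 1) of a library.

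Proteasome genes were among the well-expressed genes of these cells. The median of the mean levels was 26.5 FPKM over the 45 tested genes, against 7.07 FPKM over all 11193 tested genes, and 41 of the 45 lay above the latter. A level of at least 10 FPKM in every library was found for 34 genes, and 9 had a mean of at least 100 FPKM. The highest means belonged to PSMB4, a structural beta subunit, at 232 FPKM and PSMD2, a large scaffold of the base that receives ubiquitin carriers, at 227 FPKM. Together the 49 genes took between 0.655% (control 2) and 1.11% (R213A 1) of a library's summed FPKM.

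**Figure D1:**
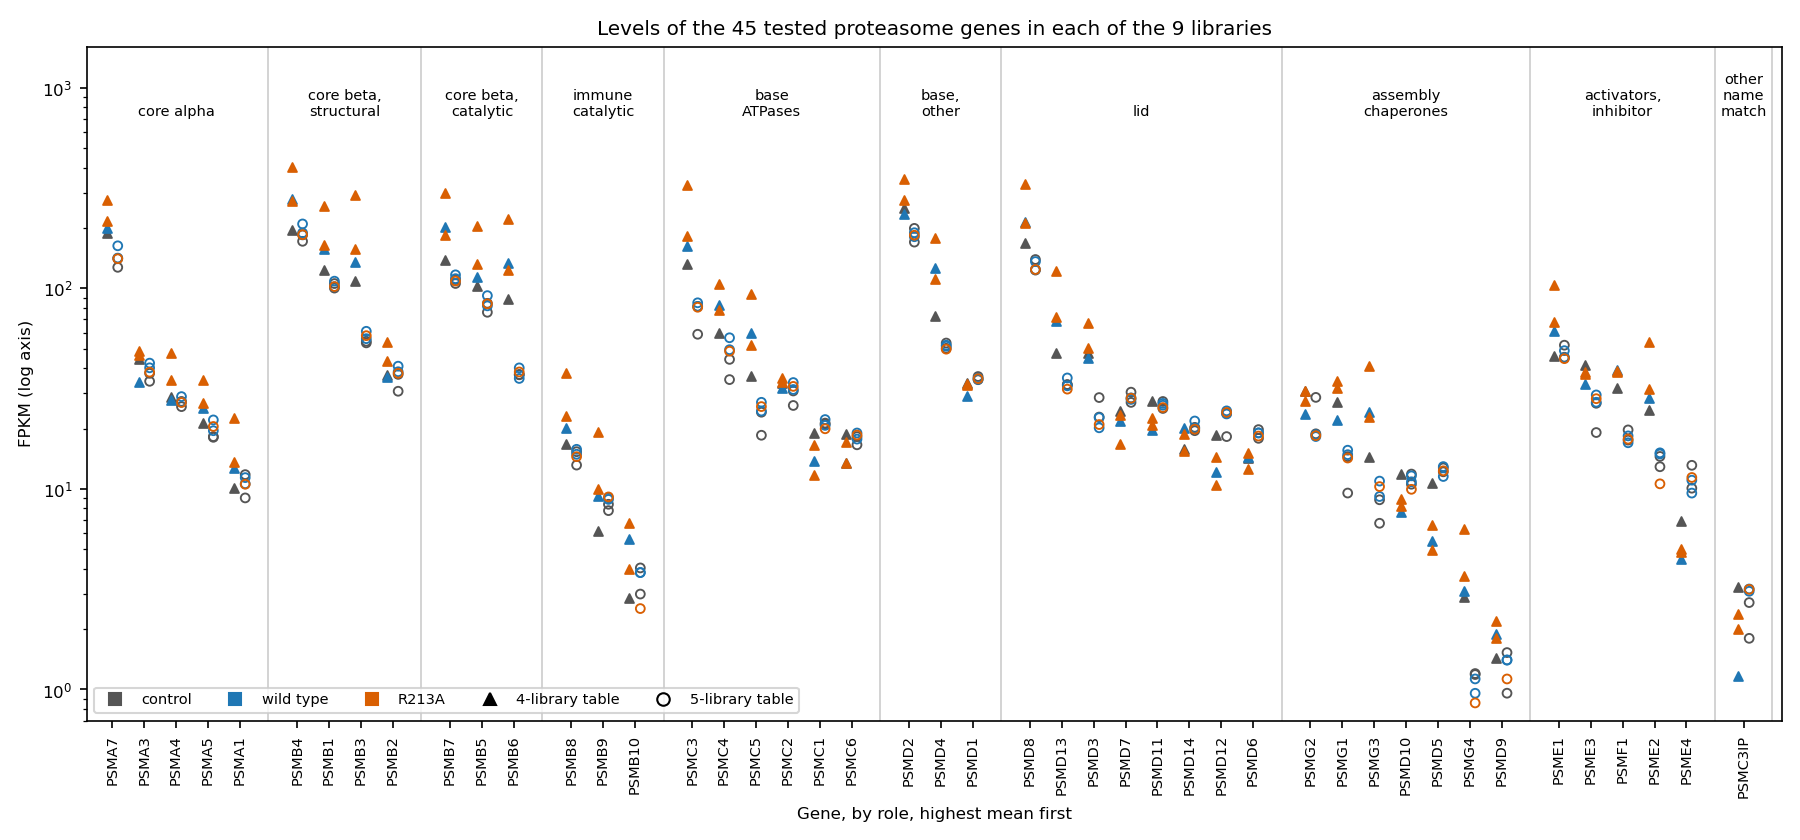
FPKM on a log axis of each of the 45 tested genes, grouped by role, with 1 point per library: triangles for the 4-library table, open circles for the 5-library table, colours for the matrix. Most short, highly expressed genes have their highest point in R213A 1, while the 5 libraries of the other table lie close together.

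Among the 4 genes below 1 FPKM, PSMA8, the alpha subunit of the testis proteasome, was listed at 0 in all 9 libraries. PSMB11, the catalytic subunit of the thymus, had a single read in R213A 2 (0.0271 FPKM) and 0 elsewhere. At 0 reads the counts allow up to 3 reads in a library. The other two, PSMA2 and PSMA6, encode obligatory alpha subunits, and are described with the ring they belong to.

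The alpha ring was read at very unequal FPKM although its subunits are assembled in equal number. The listed length of a gene is the union of its annotated exons, so FPKM compared between genes also depends on how much exon is annotated. In control 1, PSMA7 (1750 bases) had 6177 reads and PSMA4 (6996 bases) had 3783. The part of listed length in the unequal levels was not tested. PSMA7 was the highest, with a mean of 177 FPKM, followed by PSMA3 at 40.7, PSMA4 at 30.6, PSMA5 at 23.0 and PSMA1 at 12.5 FPKM. PSMA2 (chr7:42916857-42932223, minus strand) lay between 0.388 and 1.08 FPKM on 40 to 87 reads. PSMA6 (chr14:35278633-35317493, plus strand) lay between 0.368 and 0.721 FPKM on 33 to 87 reads. PSMA1, PSMA2 and PSMA6 were singled out here after their values had been seen.

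In the GENCODE 29 annotation, to which every gene of the tables could be matched by identifier, position and length, these genes share their coding exons with a read-through gene of the same strand. The shared part was 97.1% of the coding sequence for PSMA2, 70.4% for PSMA6 and 88.6% for PSMA1. Beyond the alpha ring it was 58.7% for the chaperone PSMD9 and 58.3% for the immune subunit PSMB10, then 14.2% for PSMF1 and at most 0.125% for the remaining 43 genes. The partner genes themselves were listed at no more than 0.295 FPKM in any library. PSMD9 and PSMB10 were the lowest genes of their roles, with means of 1.53 and 4.05 FPKM, and PSMA1, PSMA2 and PSMA6 the lowest of the alpha ring apart from PSMA8. How the counting treated reads shared between genes is not given in the sources used here, and its part in these levels was not tested. For the 5 genes, the FPKM values are therefore uncertain as levels.

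**Figure D2:**
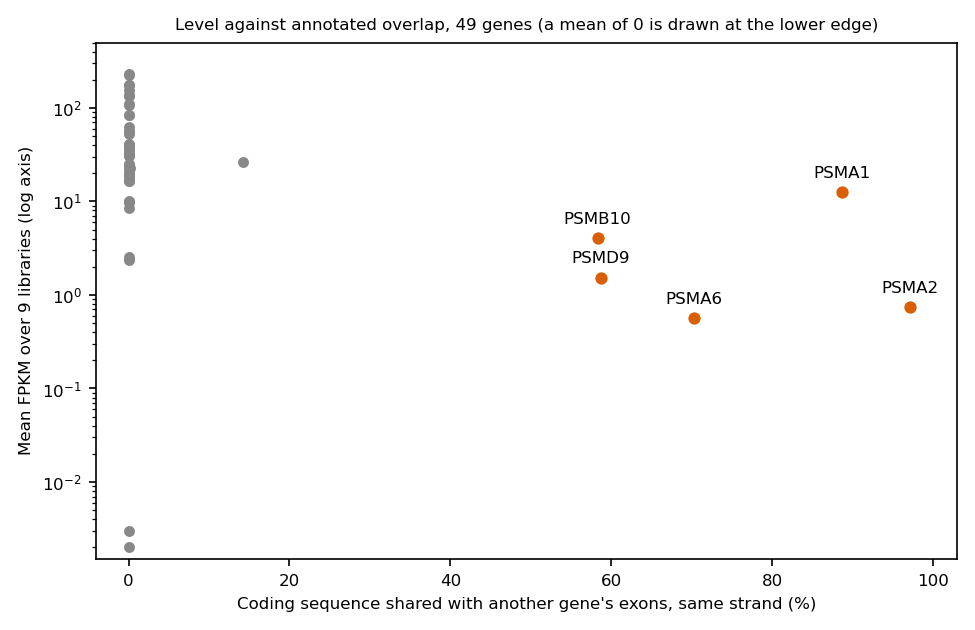
Mean FPKM over the 9 libraries (log axis) of the 49 genes against the percentage of their coding sequence that lies in exons of another annotated gene on the same strand. The 5 genes above 50% (PSMA1, PSMA2, PSMA6, PSMB10, PSMD9) have means of at most 12.5 FPKM, while most other genes lie above 10 FPKM and PSMA8, at 0, is drawn at the lower edge.

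The matrix comparisons of the alpha ring gave differences of 1 sign, none past the threshold. PSMA7 (chr20:62136735-62143440) was at 188 FPKM in control 1, 199 in wild type 1, 276 in R213A 1 and 218 in R213A 3. Its 5-library values were 127 and 141 FPKM in the controls, 142 and 163 with wild-type CPXM2 and 141 with R213A. R213A was above control in the former, while in the latter R213A 2 was level with control 3. PSMA4 had the lowest p of the ring for wild type against R213A, with 27.8 FPKM in wild type 1 against 47.7 and 35.1 in R213A 1 and 3, and 27.1 and 28.9 in wild type 2 and 3 against 27.0 in R213A 2. The log2 difference was -0.27 ± 0.21 (SE), with an adjusted p of 0.996 in limma. All 5 tested alpha genes had a positive log2 difference between R213A and control (median 0.30, also positive in 5 of 5 with wild type, median 0.15).

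The beta rings held the highest levels of the core. Of the structural subunits, PSMB4 (chr1:151399534-151401944) was at 195 FPKM in control 1, 279 in wild type 1 and 404 and 274 in R213A 1 and 3. Its 5-library values were 172 and 185 FPKM for control, 189 and 209.7 for wild type and 185 for R213A. In both tables no control library reached a wild-type library, but in the 5-library table the gap was smaller than the gap between the controls. PSMB3 (chr17:38752736-38764231) was the structural subunit with the largest difference between R213A and control. It stood at 109 FPKM in control 1 and 136 in wild type 1, against 294 and 157 in R213A 1 and 3. The 5-library values of PSMB3 were 53.5 and 54.5 FPKM for control, 56.2 and 61.1 for wild type and 58.1 for R213A. The log2 difference of PSMB3 was 0.56 ± 0.29 (SE) for R213A against control (unadjusted p = 0.0823, adjusted p = 0.690 in limma) and -0.38 ± 0.29 for wild type against R213A. PSMB2, the lowest structural subunit with a mean of 39.5 FPKM, ranged from 30.7 to 54.3 FPKM.

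The 3 constitutive active sites are carried by PSMB5 (chymotrypsin-like), PSMB6 (caspase-like) and PSMB7 (trypsin-like). PSMB5 (chr14:23016543-23035230) was at 102 FPKM in control 1, 114 in wild type 1, 205 in R213A 1 and 132 in R213A 3. The 5-library values were 76.1 and 84.3 FPKM for control, 81.9 and 92.1 for wild type and 83.8 for R213A. PSMB6 (chr17:4796144-4798503) was at 88.6, 134, 222 and 124 FPKM in the same order of the 4-library table. Its 5-library values all lay between 35.6 and 40.2 FPKM, so the levels of the 2 tables did not overlap. PSMB7 (chr9:124353466-124415444) was at 139 FPKM in control 1, 202 in wild type 1, 300.0 in R213A 1 and 185 in R213A 3, against 106 to 117 FPKM in the 5 other libraries. In the 4-library table each of the 3 genes was lowest in the control and highest in R213A 1, whereas in the 5-library table the groups overlapped or differed by a few FPKM. The log2 differences between R213A and control were 0.40 ± 0.25 (SE) for PSMB5, 0.45 ± 0.28 for PSMB6 and 0.37 ± 0.26 for PSMB7, all with an adjusted p of 0.690 in limma.

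The interferon-inducible subunits PSMB8, PSMB9 and PSMB10, which replace PSMB5, PSMB6 and PSMB7 in turn, were present at lower levels. PSMB8 (chr6:32840717-32844703, minus strand) was at 16.8 FPKM in control 1, 20.2 in wild type 1 and 38.0 and 23.1 in R213A 1 and 3. Its 5-library values were 15.3 and 13.2 FPKM for control, 15.8 and 14.9 for wild type and 14.5 for R213A. PSMB9 (chr6:32844136-32859585, plus strand) was at 6.18 FPKM in control 1, 9.19 in wild type 1, 19.3 in R213A 1 and 9.96 in R213A 3. PSMB9 in the 5-library table was at 8.39 and 7.80 FPKM in the controls, 8.87 and 9.03 with wild type and 9.13 with R213A. PSMB9 was thus the immune subunit whose control libraries lay below all wild-type and all R213A libraries in both tables, with 8.39 against 8.87 FPKM as the nearest values in the 5-library table. For R213A against control its log2 difference was 0.61 ± 0.27 (SE; unadjusted p = 0.0474, adjusted p = 0.690 in limma). PSMB10 (chr16:67934502-67937087, minus strand) went from 2.85 FPKM in control 1 to 5.61 in wild type 1, 6.76 in R213A 1 and 3.99 in R213A 3. Among the other 5 libraries it was lowest in R213A 2, at 2.53 FPKM, against 2.99 and 4.04 in the controls and 3.83 in both wild-type libraries. Its values rest on few reads, 82 in the lowest library. The difference between R213A and control was 0.69 in the former table and -0.34 in the latter on the log2 scale, and the test of that disagreement gave an unadjusted p of 0.0433 and an adjusted p of 0.386 in limma.

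Interferon-inducible genes often carry the interferon-stimulated response element, and its core, written as GAAA, any 2 bases and GAAA on either strand, was searched for in the RefSeq promoter table (build GRCh38.p14, 250 bases before to 50 after the start), in which 43 of the 49 genes were matched. The pattern was found for 7 of the 43 genes, or 16.3%, against 4.38% of 27305 genes with a promoter of the same length. The 7 were PSMB8, PSMB10, the activator genes PSME1 and PSME2, and PSMA4, PSMB4 and PSMG4, but not PSMB9. TAP1 lies within the span of PSMB9 on the opposite strand, but 5.66% of the exonic length of PSMB9 overlaps exons of any other gene. The first 4 are shown because they include the immunoproteasome genes with a match; each window runs 5′ to 3′ on the strand of its gene and the capitals mark the match. A match describes the letters and not a bound site. PSMB8 is at chr6:32843998-32844297 (minus strand, the window with the match of 2 listed for the gene), PSMB10 at chr16:67936801-67937100 (minus strand), PSME1 at chr14:24135944-24136243 (plus strand) and PSME2 at chr14:24146561-24146860 (minus strand).
PSMB8: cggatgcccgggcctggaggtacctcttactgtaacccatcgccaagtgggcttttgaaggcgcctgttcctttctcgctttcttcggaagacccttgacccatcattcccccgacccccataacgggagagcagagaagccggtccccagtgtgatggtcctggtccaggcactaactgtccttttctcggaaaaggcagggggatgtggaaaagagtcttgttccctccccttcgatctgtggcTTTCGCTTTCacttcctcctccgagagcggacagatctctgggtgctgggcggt
PSMB10: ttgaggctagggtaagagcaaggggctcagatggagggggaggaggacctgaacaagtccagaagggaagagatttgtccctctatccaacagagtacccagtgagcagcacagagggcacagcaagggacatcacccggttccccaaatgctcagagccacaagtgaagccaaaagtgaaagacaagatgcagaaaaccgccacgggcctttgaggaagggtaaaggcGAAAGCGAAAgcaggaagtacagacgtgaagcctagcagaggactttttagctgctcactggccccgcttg
PSME1: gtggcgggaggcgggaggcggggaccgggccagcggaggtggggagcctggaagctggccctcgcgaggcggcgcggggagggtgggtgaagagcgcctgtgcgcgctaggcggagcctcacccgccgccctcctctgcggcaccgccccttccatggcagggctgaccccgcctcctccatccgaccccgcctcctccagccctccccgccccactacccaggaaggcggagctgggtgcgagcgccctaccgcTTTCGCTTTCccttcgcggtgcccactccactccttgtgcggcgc
PSME2: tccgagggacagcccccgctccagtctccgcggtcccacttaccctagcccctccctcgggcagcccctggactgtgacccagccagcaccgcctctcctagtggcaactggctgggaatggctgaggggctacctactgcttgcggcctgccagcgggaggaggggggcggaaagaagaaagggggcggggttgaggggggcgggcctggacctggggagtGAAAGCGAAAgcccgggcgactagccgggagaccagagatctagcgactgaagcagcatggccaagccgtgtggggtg
The match spans the start in PSMB8 (bases -4 to 6), lies before it in PSMB10 (-21 to -12) and PSME2 (-28 to -19), and lies after it in PSME1 (6 to 15). Mean levels of these 4 genes ranged from 4.05 FPKM for PSMB10, whose FPKM is uncertain as a level (see above), to 57.3 for PSME1. The part of the shared letters in these levels was not tested. Of the genes outside the name rule that mark interferon signalling, TAP1 (a peptide transporter) had a log2 difference of -0.02 ± 0.17 (SE) between R213A and control and IRF1 (a transcription factor) 0.05 ± 0.17, with adjusted p of 0.960 and 0.925 in limma. They belong to a list of 6 such genes, of which 5 were tested. Of these 5, 2 were higher and 3 lower between R213A and control, from -0.38 to 0.15. Between wild type and control 3 were higher and 2 lower, from -0.17 to 0.24, and 0 passed the threshold in limma in either comparison.

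Ratios between an immune subunit and the subunit it replaces do not depend on how a library was scaled. Their size does depend on the listed lengths of both genes, such as 3072 bases for PSMB9 and 1448 for PSMB6. These lengths are the same in all libraries, but the relation of the differences to gene length varied between libraries, as given below. The part of length in the ratios was not tested. PSMB9 amounted to between 6.87 and 8.71% of PSMB6 in the 4 libraries of 1 table and to between 21.0 and 24.9% in the 5 libraries of the other, with no overlap. PSMB8 amounted to 15.6 to 20.2% of PSMB5 over all 9 libraries, with overlap between the tables. PSMB10 made up 2.05 to 2.78% of PSMB7 in the former 4 libraries and 2.33 to 3.65% in the latter 5. Summed over the 3 sites, the immune subunits stood at 7.78 to 8.83% of the constitutive ones in 4 libraries and at 10.8 to 12.4% in the other 5. Within the 4-library table both R213A libraries (8.83 and 8.40%) were above control 1 (7.82%) and wild type 1 (7.78%). Within the 5-library table R213A 2 (11.3%) lay between the controls (12.2 and 10.8%) and between the wild types (12.4 and 11.1%).

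**Figure D3:**
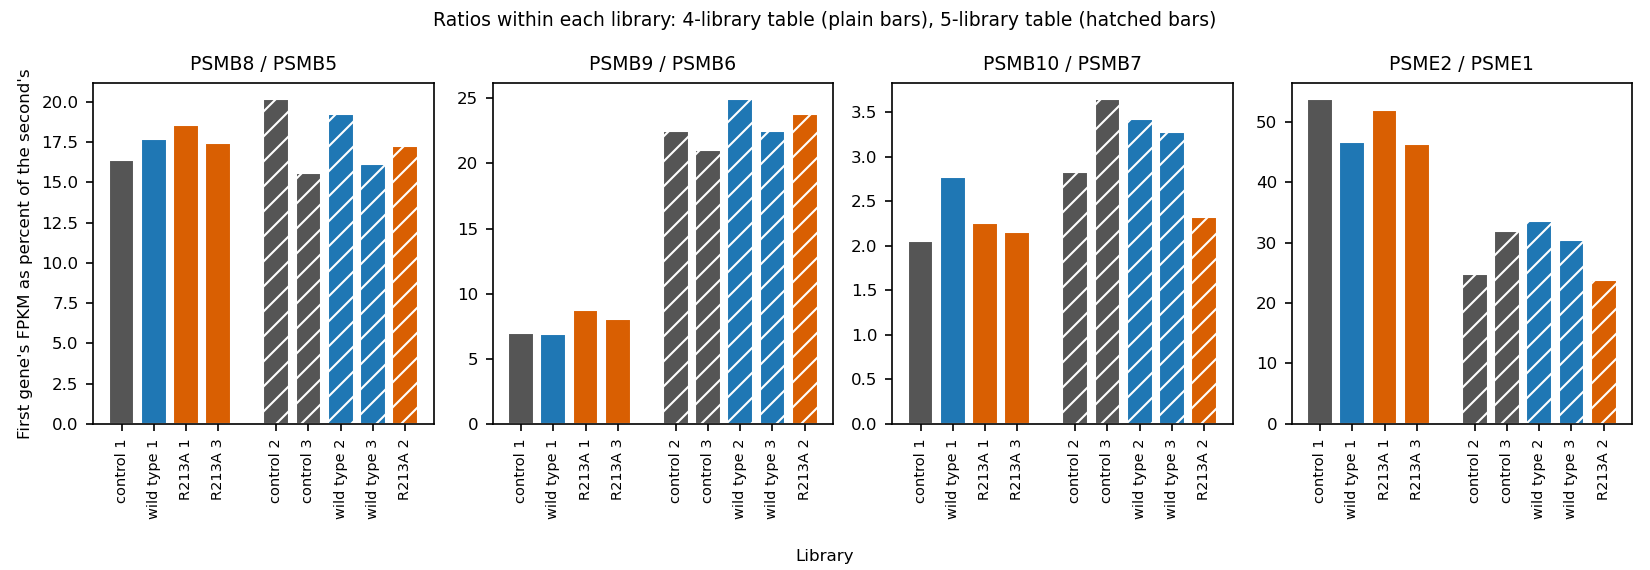
FPKM of PSMB8, PSMB9, PSMB10 and PSME2 as a percentage of the FPKM of PSMB5, PSMB6, PSMB7 and PSME1 in each of the 9 libraries, coloured by matrix, with plain bars for the 4-library table and hatched bars for the 5-library table. The PSMB9 ratio is 6.87 to 8.71% in the plain bars and 21.0 to 24.9% in the hatched bars, and the PSME2 ratio differs between the tables the other way.

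The base of the regulatory particle holds 6 ATPases, PSMC1 to PSMC6, which unfold the substrate. Against control, the fitted differences were positive for PSMC2, PSMC3, PSMC4 and PSMC5 and negative for PSMC1 and PSMC6, the genes of greatest listed length, with either CPXM2 matrix. PSMC3 (chr11:47418769-47426473) was at 132 FPKM in control 1, 164 in wild type 1, 326 in R213A 1 and 183 in R213A 3. The 5-library values were 59.1 and 81.3 FPKM for control, 81.4 and 84.8 for wild type and 80.6 for R213A. Control 2 was the low library there, and R213A 2 did not exceed control 3. PSMC5 (chr17:63827152-63832026) was at 36.5, 60.1, 94.2 and 52.4 FPKM in control 1, wild type 1, R213A 1 and R213A 3. Its 5-library values were 18.5 and 24.1 FPKM for control, 24.5 and 27.0 for wild type and 25.8 for R213A. PSMC4 (chr19:39971005-39981441) was at 59.9, 83.1, 105 and 78.3 FPKM in the order of the former table, and at 35.1 and 44.3 for control, 49.5 and 56.8 for wild type and 48.7 for R213A in the latter. PSMC4 and PSMC5 were the ATPases whose controls lay below every wild-type and every R213A library in both tables.

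For PSMC4 the log2 difference was 0.43 ± 0.20 (SE) for wild type against control and 0.46 ± 0.21 for R213A against control, with adjusted p of 0.757 and 0.690 in limma. For PSMC5 it was 0.41 ± 0.26 and 0.59 ± 0.27 in the same order, with adjusted p of 0.757 and 0.690. PSMC1 (chr14:90256495-90275429) had the opposite sign. It was at 18.9 FPKM in control 1, 13.8 in wild type 1, 11.7 in R213A 1 and 16.6 in R213A 3, and at most at 22.2 FPKM in the 5-library table, where R213A 2 was the lowest but above control 1. PSMC6, with the lowest mean of the ring at 17.0 FPKM, ranged from 13.4 to 19.0 FPKM. A processed copy of PSMC1, PSMC1P1, had a mean of 5.28 FPKM, the highest of the 32 pseudogene rows with such names. Reads of PSMC1 and its copy may have been split in counting, and 75.8% of its exonic length overlaps a gene of the opposite strand.

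The other base subunits are scaffolds and ubiquitin receptors. PSMD2 (chr3:184298709-184309054) was at 251 FPKM in control 1, 236 in wild type 1 and 352 and 275 in R213A 1 and 3. The 5-library values of PSMD2 ranged from 170.3 (control 3) to 199 FPKM (control 2), so the groups overlapped. PSMD1 was close to level, between 29.2 and 36.4 FPKM over all 9 libraries, and the 95% interval of its log2 difference between R213A and control ran from -0.38 to 0.38. PSMD4, the ubiquitin receptor, ranged from 73.1 FPKM in control 1 to 179 in R213A 1 and from 49.8 to 53.4 FPKM in the 5-library table.

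The lid genes were divided in direction. Of its 8 genes 4 had a positive and 4 a negative log2 difference in each of the 3 comparisons. This depended on the setting, since quantile scaling left 2 of 8 positive between R213A and control and 6 of 8 between wild type and R213A. The 5-library table alone gave 1 of 8 and 7 of 8 for these comparisons, and the 4-library table alone 4 of 8 and 3 of 8. Its medians against control were -0.02 with wild type and -0.01 with R213A. PSMD8 was the highest at a mean of 175 FPKM. It was at 169 FPKM in control 1, 214 in wild type 1 and 334 in R213A 1, with R213A 3 just under wild type 1, against 123 to 139 FPKM in the 5-library table. PSMD6, the lowest at a mean of 16.7 FPKM, ranged from 12.6 to 19.8 FPKM. PSMD14 (chr2:161308038-161411717), the deubiquitinase of the lid, was at 15.8 FPKM in control 1 and 20.1 in wild type 1, with 15.5 and 18.9 in R213A 1 and 3. In the other table PSMD14 was at 19.5 and 20.3 FPKM with the control matrix, 20.1 and 21.8 with wild type and 19.9 with R213A. It was the gene of the 45 in which every wild-type library lay above the R213A libraries of its table, with a log2 difference of 0.13 ± 0.17 (SE, adjusted p = 0.996 in limma). PSMD7, the partner of PSMD14, was at 24.4, 21.9, 16.8 and 23.4 FPKM in control 1, wild type 1, R213A 1 and R213A 3, and between 27.0 and 30.4 FPKM elsewhere.

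Assembly chaperones held the highest and the lowest value of the comparison between R213A and control. PSMG3 (chr7:1567330-1571005), which with PSMG4 helps to build the alpha ring, was at 14.4 FPKM in control 1, 24.1 in wild type 1, 41.1 in R213A 1 and 22.9 in R213A 3. The 5-library values of PSMG3 were 6.74 and 8.83 FPKM for control, 9.17 and 10.9 for wild type and 10.3 for R213A. The controls were lowest in both tables, and the values rest on 217 to 1093 reads. Its log2 difference was 0.70 ± 0.26 (SE; 95% interval 0.12 to 1.28, unadjusted p = 0.0222, adjusted p = 0.690 in limma) for R213A against control and 0.46 ± 0.25 (adjusted p = 0.757) for wild type against control. PSMD5 (chr9:120815496-120842984), a chaperone of the base, was at 10.8 FPKM in control 1, 5.53 in wild type 1 and 4.96 and 6.62 in R213A 1 and 3, and between 11.5 and 12.9 FPKM in the 5-library table. It was thus lower with either CPXM2 matrix in 1 table and level in the other. Its log2 difference for R213A against control was -0.36 ± 0.22 (SE, adjusted p = 0.690 in limma), made up of -0.80 and -0.01 in the 2 tables (unadjusted p of their difference 0.0495, adjusted p 0.386).

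PSMG2 (chr18:12658043-12725740), which pairs with PSMG1 on the early alpha ring, was at 30.9 FPKM in control 1, 23.7 in wild type 1 and 27.4 and 30.6 in R213A 1 and 3. The 5-library values were 28.6 and 18.8 FPKM for control, 18.3 and 18.7 for wild type and 18.4 for R213A. Control 2 was the library that stood apart there, since the other 4 lay between 18.3 and 18.8 FPKM. PSMD10 (gankyrin), another chaperone of the base, was at 11.8 FPKM in control 1 and between 7.68 and 8.93 in the rest of that table, and between 9.96 and 11.9 FPKM in the other. PSMD9 was at most at 2.20 FPKM, in R213A 1.

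Activators open the gate of the core without the regulatory particle. PSME1 (chr14:24136158-24138967), a subunit of the interferon-inducible activator, was at 46.3 FPKM in control 1, 61.2 in wild type 1 and 104 and 68.2 in R213A 1 and 3, and between 44.7 and 52.1 FPKM in the 5-library table. Its partner PSME2, which starts nearby on the opposite strand, stood at 46.4 to 53.8% of PSME1 in the libraries of the former and at 23.8 to 33.6% in those of the latter, with no overlap. The size of this ratio rests on listed lengths of 3582 bases for PSME2 and 1781 for PSME1. The part of length in its difference between the tables was not tested. By reads, control 1 had 1672 for PSME2 and 1546 for PSME1. PSME4 (chr2:53864067-53970840), a large single-chain activator and the second longest of the genes at 10.2 kb, was at 6.95 FPKM in control 1, 4.47 in wild type 1 and 5.05 and 4.83 in R213A 1 and 3. Its 5-library values were 13.1 and 10.1 FPKM in the controls, 11.1 and 9.54 with wild type and 11.4 with R213A. Its log2 difference between wild type and control was -0.28 ± 0.18 (SE, adjusted p = 0.757 in limma). PSMC3IP, the gene that is no subunit, was at 3.23 FPKM in control 1 and 1.17 in wild type 1. Its values rest on few reads, from 58 in wild type 1 to 156 in control 1. Among the other 5 libraries its wild-type values (3.09 and 3.17 FPKM) were above the controls (1.80 and 2.71 FPKM), and the test of the difference between the tables gave an unadjusted p of 0.00603 and an adjusted p of 0.104 in limma.

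No proteasome gene passed the threshold in any comparison. In limma on log2(FPKM + 1) with the deposited table as a term and an adjusted p of 0.05, 0 of 11193 genes (0%) were called in each of the 3 comparisons, and limma-voom on the recovered reads also called 0. The smallest adjusted p of a proteasome gene was 0.757 between wild type and control, 0.690 between R213A and control and 0.996 between wild type and R213A. At an unadjusted p under 0.05, 0 of 45 proteasome genes stood against 4.49% of all genes (2.25% higher) for wild type and control, 2 of 45 against 3.05% for R213A and control, and 0 of 45 against 1.05% for wild type and R213A. The pair was PSMG3 and PSMB9, both higher with R213A, as were 1.28% of all genes. With limma-voom on the reads these counts were 0, 3 and 0, where 4.80%, 2.88% and 1.06% of all genes passed. The unadjusted 95% interval of a single gene reached 0.48, 0.50 and 0.50 on the log2 scale to either side at the median. For a gene with such an interval, a smaller difference does not reach an unadjusted p of 0.05 in limma. The adjusted threshold asks for more: PSMG3, at 0.70 between R213A and control, had an adjusted p of 0.690 in limma.

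Directions were less evenly spread than over all genes. The tested proteasome genes were shorter than all tested genes (median 3.36 against 4.68 kb). Counts for genes of like length are given below for single libraries against a control library. For the fitted differences and the overlap of libraries, no such counts are given. Between wild type and control, 31 of the 45 genes had a positive log2 difference, against 46.3% of all tested genes, with a median of 0.13 against -0.03. Between R213A and control it was 34 of 45, against 48.1%, with a median of 0.24 against -0.02. Between wild type and R213A it was 9 of 45, against 48.5%, with a median of -0.15 against -0.01, but with quantile scaling 25 of 45 were positive and the median was 0.02. The comparisons with control share the control libraries, so their directions are not independent. Libraries of the groups compared did not overlap in either table, with the CPXM2 matrix higher, for 11 of 45 genes for wild type (7.42% of all genes) and for 11 of 45 for R213A (8.90%). With the CPXM2 matrix lower it was 2 (9.24%) and 3 of 45 (11.8%). Wild type lay above R213A in both tables for 1 gene (10.3%) and below it for 2, PSMB9 and PSME4 (10.1%).

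The core particle accounted for much of this. All 12 of its tested genes had a positive log2 difference for R213A against control (median 0.37), 11 of 12 with quantile scaling (median 0.16). All 12 were also positive for wild type against control (median 0.15), and all 12 negative for wild type against R213A (median -0.20), where quantile scaling left 5 of 12 positive and a median of -0.01. By table, 0 of 12 were positive in the 4-library table (median -0.40) and 11 of 12 in the 5-library table (median 0.05). The 3 immune subunits were positive in both comparisons with control, with medians of 0.26 for wild type and 0.43 for R213A, but without R213A 1 this held for 2 of the 3 with R213A (median 0.21). The 17 genes of the regulatory particle were split, with 10 positive for R213A against control (median 0.03; 7 of 17 and -0.05 with quantile scaling) and 9 positive for wild type against control (median 0.02).

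The 2 tables did not show the same size of difference. Of the 45 genes, 32 were higher with R213A than with control in the 4-library table (47.8% of all tested genes) and 23 with the 5 other libraries (46.6%). Wild type was above control for 26 (46.0%) and 34 (47.7%), and above R213A for 5 (47.1%) and 34 (53.1%). Between R213A and control the median over the core genes was 0.71 and 0.06 on the log2 scale in the same order of the tables, and over all 45 genes 0.38 and 0.01. Between wild type and control the core medians were 0.27 and 0.12. Against control 1, R213A 1 had a median difference of 1.02 over the core genes and 0.55 over the 45, of which 16 differed at least 2-fold, and R213A 3 had 0.39 and 0.27 with 0 such genes. Of 13 mitochondrial genes in the same table, 0 were higher with wild type than with control (median -0.80) and 3 with R213A (median -0.38), and their part in the result was not tested. Over all 11193 genes 2316 and 387 differed at least 2-fold in these libraries. Of the 45 genes, 30 had their highest value of all libraries in R213A 1, as did 29.2% of all tested genes. Without R213A 1 the median over the 45 genes was 0.13 for R213A against control, and 12 of 12 core genes stayed positive with a median of 0.19. Without control 1 the medians were 0.14 for R213A and 0.01 for wild type, and 9 of 12 core genes were positive for wild type (median 0.02). Between wild type and R213A, leaving out R213A 1 left 4 of 12 core genes positive (median -0.03). A test of the difference between the tables called 0 of 45 genes in each comparison, against 1.12% of all genes for wild type against control and 0% for the other two, and 2, 2 and 0 genes at an unadjusted p under 0.05 (20.7%, 12.4% and 7.25% of all genes).

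**Figure D4:**
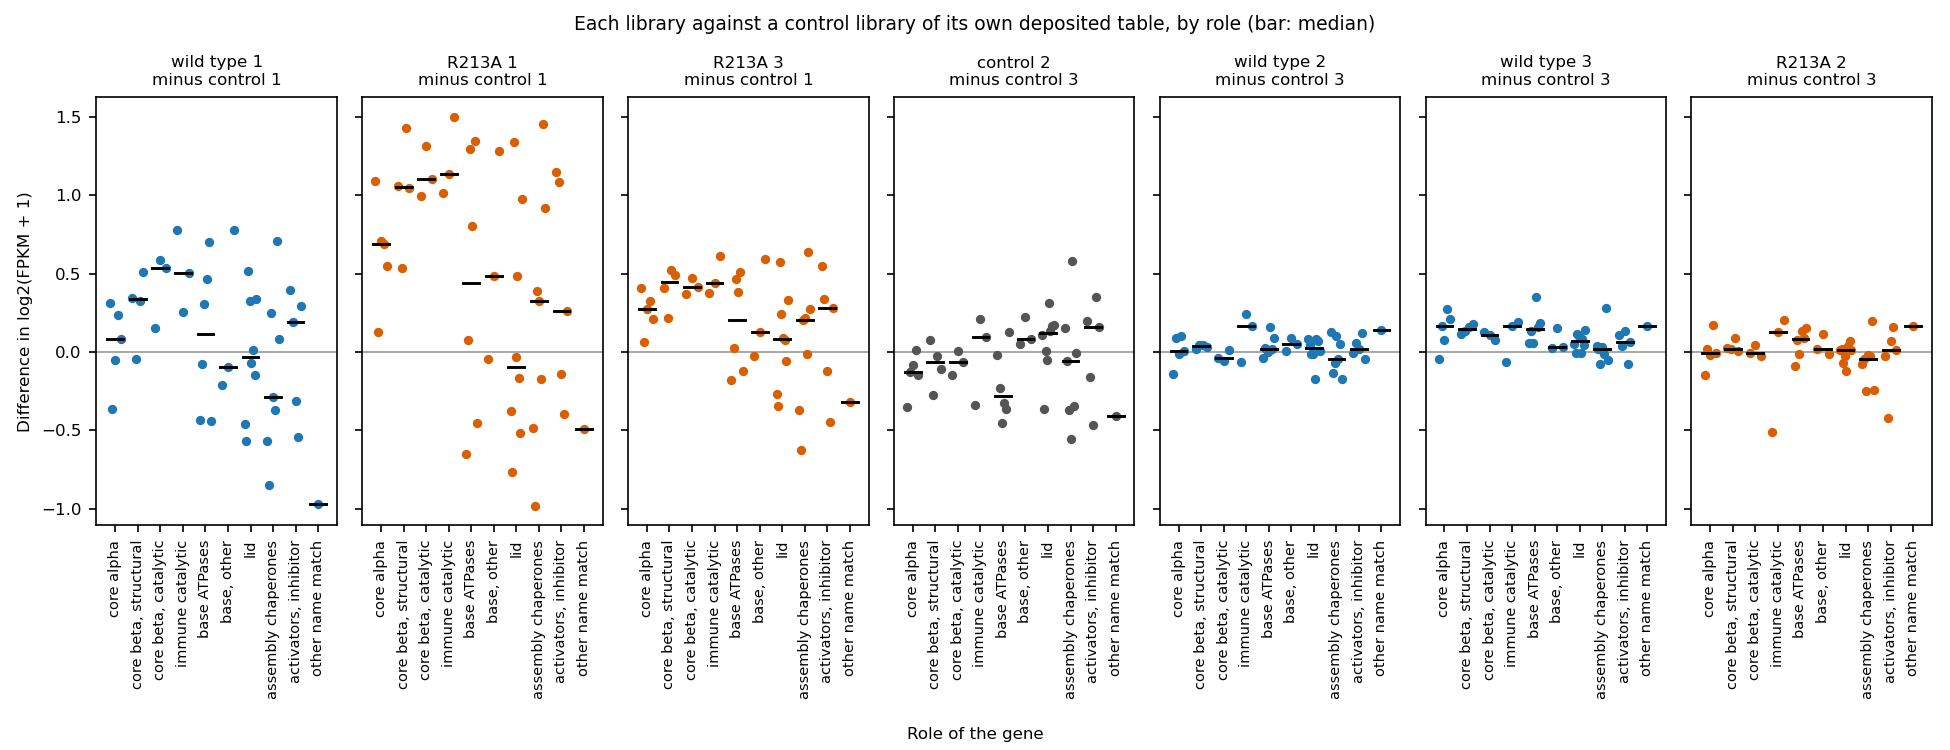
Difference in log2(FPKM + 1) of each tested gene between a library and a control library of its own table (control 1 or control 3), by role, with a bar at the median of the role. R213A 1 and R213A 3 have all 12 core genes above 0 and wild type 2 and R213A 2 lie near 0, with core medians of 0.02 and 0.01, against 0.13 for wild type 3 and -0.09 for control 2.

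Levels also differed between the tables as such, which no matrix comparison rests on. In 21 of the 45 genes every library of the 4-library table lay above every library of the 5-library table, which held for 23.7% of all tested genes, and in 6 it was the reverse (30.3%). PSMB3, PSMB6, PSMC3, PSMD4 and PSME2 were among the former and PSMD5, PSMD6 and PSME4 among the latter.

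The size of the difference went with gene length in the 4-library table. The tested proteasome genes were short, with a median listed length of 3.36 kb against 4.68 kb over all tested genes. Between R213A 1 and control 1 the median difference was 1.05 on the log2 scale for the 17 proteasome genes of up to 3 kb, 0.98 for the 13 from 3 to 5 kb and -0.05 for the 15 longer ones. Over all tested genes of the same lengths the medians were 0.55, 0.05 and -0.34. As a description across genes, which share their libraries and are not replicates, the correlation of the difference with log length was r = -0.49 (rho = -0.51) over the 45 genes and r = -0.32 (rho = -0.41) over all. It was r = -0.44 for R213A 3 and r = -0.38 for wild type 1. Among the other 5 libraries it was r = -0.04 for R213A 2, -0.11 for wild type 2 and -0.33 for wild type 3 against control 3. Of genes of up to 3 kb, 14 of 17 proteasome genes and 2197 of all 3094 were higher in R213A 1 than in control 1. From 3 to 5 kb it was 11 of 13 and 1522 of 2909, and from 5 kb 6 of 15 and 1598 of 5190. For genes of up to 3 kb in R213A 3 it was 14 of 17 and 2100 of 3094, and in wild type 1 13 of 17 and 1937 of 3094. Against control 3, 16 of 17 and 1983 of 3094 genes of up to 3 kb were higher in wild type 3. It was 13 of 17 and 1580 in wild type 2, 9 of 17 and 1588 in R213A 2, and 6 of 17 and 1569 in control 2. When each library was corrected for length, the median over the 45 genes was 0.19 for R213A against control, 0.06 for wild type against control and -0.13 for wild type against R213A, and the core particle kept 12 of 12 positive for R213A (median 0.25) and 10 of 12 for wild type (median 0.07). The part of length in the differences was not tested beyond these values.

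**Figure D5:**
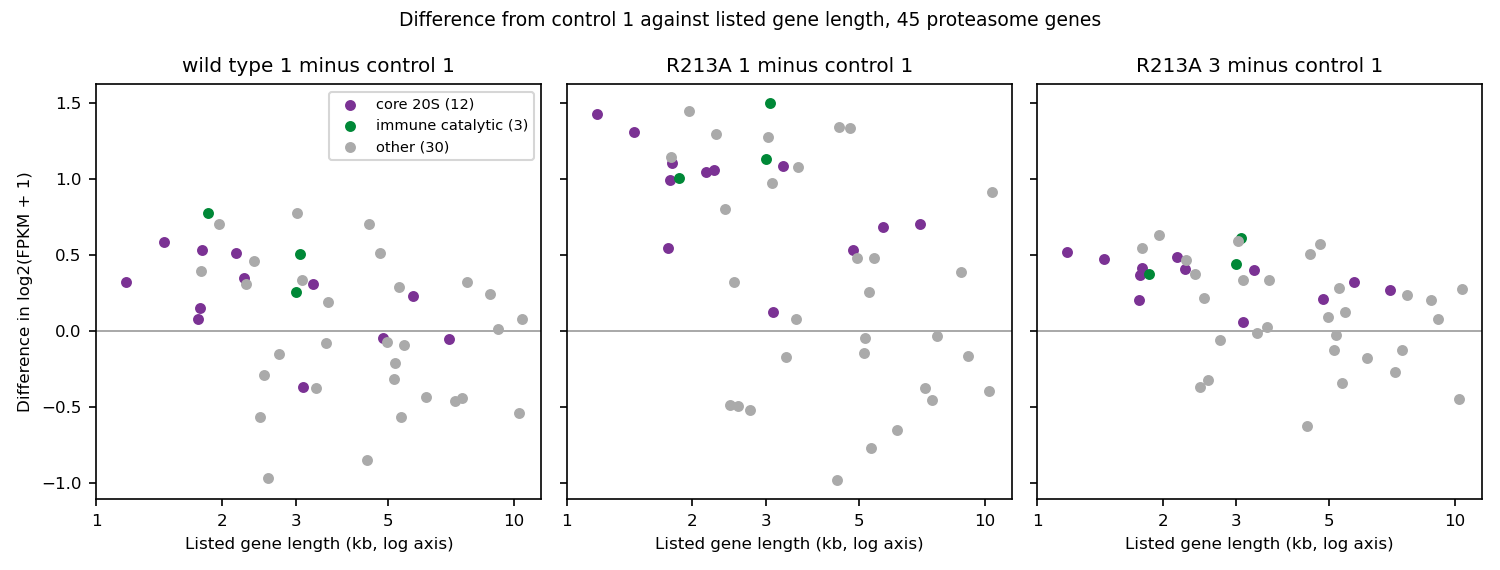
Difference in log2(FPKM + 1) from control 1 against listed gene length (log axis) for wild type 1, R213A 1 and R213A 3, with 1 point per gene (12 core, 3 immune catalytic, 30 other). Genes of up to 3 kb lie mostly above 0 and genes beyond 5 kb on both sides of 0, and the core genes are mainly short.

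Partners of the proteasome without a PSM symbol did not share 1 direction. Of 11 such genes, 0 passed the threshold in limma in any comparison (0 at an unadjusted p under 0.05 in each), with 7 positive between wild type and control (median 0.06) and 5 between R213A and control (median -0.13). In R213A 1 against control 1, 5 of the 11 were higher and their median was -0.43. The listed length of the partners had a median of 7.05 kb, against 2.26 kb for the core particle and 4.96 kb for the regulatory particle. The part of length in this contrast was not tested. ADRM1, the ubiquitin receptor of the base, was at 64.0 FPKM in control 1, 115 in wild type 1, 132 in R213A 1 and 95.6 in R213A 3, and at 27.9 and 42.1 (control), 39.2 and 47.1 (wild type) and 41.6 FPKM (R213A) in the 5-library table. POMP, the chaperone of the beta ring, was at 143, 155, 258 and 162 FPKM in the former order and at 122 to 138 FPKM in the other table. SEM1, a small lid subunit, was at 5.66, 6.57, 13.9 and 7.11 FPKM, and at 4.02 to 4.64 FPKM elsewhere. USP14, a deubiquitinase that docks on the base, went the other way with 36.4, 23.2, 21.3 and 30.7 FPKM, and was level at 46.0 to 51.1 FPKM in the 5-library table.

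NFE2L1, whose protein raises proteasome genes, was at 80.3 FPKM in control 1, 143 in wild type 1 and 52.6 and 80.5 in R213A 1 and 3. R213A 1 had the lowest NFE2L1 level of the 9 libraries. The gene has a listed length of 5825 bases. All tested genes from 5 kb had a median log2 difference of -0.34 between R213A 1 and control 1. RNA levels do not measure the activity of the protein, and the part of NFE2L1 in the proteasome levels was not tested. It was among 8 genes listed for the control of proteasome expression, of which 0 passed the threshold in limma. Between R213A and control 2 were higher and 6 lower (median -0.24), and between wild type and control 4 and 4 (median -0.01). Between wild type and R213A 6 were higher and 2 lower (median 0.20). At an unadjusted p under 0.05 in limma, 1 of the 8 stood against 4.49% of all genes for wild type and control. In the 5-library table NFE2L1 was at 154 FPKM in control 2 and between 189 and 202 in the other 4 libraries. Its log2 difference was 0.59 ± 0.29 (SE, adjusted p = 0.996 in limma) for wild type against R213A. The letters TGACNNNGC of the element bound by this family (either strand) were found in 15 of 43 proteasome promoters, or 34.9%, against 16.1% of all, and the full form TGACTCAGC in 0 of 43 against 0.689%. The ETS letters CCGGAAGT (either strand) were found in 10 of 43, or 23.3%, against 4.95%. These were among 11 patterns searched in the same way. The CCAAT box was found in 48.8% against 39.7% of all promoters, the NF-kB pattern in 27.9% against 28.95%, and the heat shock pattern GAANNTTC in 2.33% against 8.21%. Of 11 genes for ubiquitin, its activating enzymes and shuttle factors, 0 passed the threshold in limma in any comparison and 0 had an unadjusted p under 0.05. Between R213A and control 5 were higher and 6 lower (median -0.01, from -0.38 to 0.54). Between wild type and control 4 were higher and 7 lower (median -0.04). UBB, a polyubiquitin gene, was at 275 FPKM in control 1, 296 in wild type 1 and 379 and 299 in R213A 1 and 3. In the other table UBB was at 192 to 239.6 FPKM.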

How the data were processed

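RNA was extracted with TRIzol and libraries were made with a stranded mRNA kit, per the labels' protocols. The authors deposited FPKM per gene in 2 tables of 58735 Ensembl genes with their gene lengths. Per the submitters' processing notes the build was hg38 and bcl2fastq was used. For the aligner, the counter and the strand setting, nothing was given in the sources used here. FPKM times listed length gave whole reads for 100% of values (tolerance 0.01 reads).

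Values were tested as log2(FPKM + 1), which understates fold changes of low genes, using limma 3.58.1 (R 4.3.3), over the 11193 genes that averaged 1 FPKM or more. The fit held all 9 libraries, the matrix and the deposited table as terms and a mean-variance trend, which left 5 residual degrees of freedom. Benjamini-Hochberg adjustment ran over all tested genes (threshold 0.05). Because of the table term, the third group could bear on a difference. The table interaction was fitted likewise, with 3 residual degrees of freedom and lone libraries assumed to vary like the others. The procedure was tested on simulated data. Genes were named by rule: the catalytic subunits, those of highest and lowest mean in each role, per comparison the 3 with the largest difference, the smallest difference and the smallest p, the name match that is no subunit, and 10 genes outside the pattern, of which some are not reported here. Others are named where a sentence says so or describes a whole role. Members and lists were chosen with earlier results of these data known. Alternatives changed the pseudocount, filter, scaling, table term, replicate block, spread model, unit, length correction and libraries. Nothing in the labels says that a replicate number marks a shared origin, so numbers were not used as pairs. Of 9 same-numbered pairs, 2 correlated negatively in their deviations (-0.65 and -0.70). Both lie across the tables, so the check does not tell pairing from the table.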

Additional observations from a re-analysis of the deposited data

How the results depend on the processing

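Counts here are of genes with an unadjusted p under 0.05 among the proteasome genes, medians are log2 differences over them, and calls are genes of any kind with an adjusted p under 0.05. In limma and limma-voom, no named gene passed the threshold in any of the 1036 values per comparison from all alternatives, of which 57, 78 and 113 had the opposite sign (wild type and control, R213A and control, wild type and R213A, in this order). For wild type against control the count of 0 became 1 with no filter (1 call), 3 with quantile scaling, 2 with only the groups compared, 1 with the 4-library table alone (775 calls), 1 without the trend and 2 with the 5-library table less control 2 (14 calls). Over all genes 3.66%, 5.74%, 2.61%, 19.2%, 4.43% and 4.74% passed in these fits, against 2.08%, 6.67%, 4.44%, 2.22%, 2.22% and 4.44% of the proteasome genes. The median of 0.13 stayed between 0.06 and 0.15 there. For R213A against control the median of 0.24 became 0.13 with quantile scaling, 0.41 without a table term (count 0), 0.38 with the 4-library table alone (184 calls), 0.00707 with the 5-library table alone (count 0) and 0.0144 with that table less control 2 (16 calls). Its count of 2 became 1 with median-of-ratios scaling, 1 with only the groups compared, 4 without the trend and 1 with the length correction, where 3.03%, 2.05%, 2.93% and 2.49% of all genes passed, and no filter gave 1 call. For wild type against R213A the median of -0.15 became 0.0156 with quantile scaling, -0.30 without a table term, -0.28 with the 4-library table alone (327 calls), 0.0506 with the 5-library table alone (count 1, 0.447% of all genes) and 0.0506 with that table less control 2 (count 2, 3.70%). No filter gave a count of 1 (2.40%). The cause was not tested. The table with 4 libraries has 1 residual degree of freedom.

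The replicate number as a block in place of the table term gave counts of 9 for R213A against control and 4 for wild type against R213A, with medians of 0.41 and -0.30, which is 9 of 45 against 22.1% of all genes and 4 of 45 against 8.94%. The replicate block with the table term gave 4 for R213A against control, or 8.89% against 5.65% of all genes, with a median of 0.36. Whether the numbers pair the libraries cannot be told apart from the table.

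Leaving out each library in turn gave counts of 0 to 3 and medians of 0.00513 (without control 1) to 0.17 for wild type against control. The count of 3 came without control 3 (12.3% of all genes) and without R213A 1 (5.51%). For R213A against control it gave counts of 1 to 10 (10 without R213A 2, or 22.2% against 10.0% of all genes) and medians of 0.13 to 0.47. For wild type against R213A it gave counts of 0 and medians of -0.33 (without R213A 2) to -0.0346 (without R213A 1). Calls stayed at 0 in each of these fits. The added alternatives, chosen after seeing the data, were the length and GC correction (medians 0.08, 0.20 and -0.14) and the 5-library table less control 2. With 3 libraries a group, the 95% interval of a proteasome gene reached 0.50 to either side at the median between R213A and control. PSMA2, PSMA6, PSMB10 and PSMC3IP are also limited by few reads.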
